A study of Mus musculus with 25 samples.

Results

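The voltage-gated potassium channel genes followed here were 9 of the 20870 genes measured, chosen by name for the cardiac currents they serve, and all 9 had a row in the table. They are Kcnd2, Kcnd3 and Kcnip2 of the transient outward current, Kcna5 of the ultrarapid delayed rectifier, Kcnh2 and Kcnh7 of the ERG family, Kcnq1 of the slow delayed rectifier, and Kcna1 and Kcnt2, which were put on the list as genes of the sinoatrial node. RNA was sequenced from the sinoatrial node (SAN) and the right atrium (RA) of mice at embryonic day (E) 14.5 and postnatal days (P) 4 and 14, with 3 libraries in each of the 6 groups. All of these mice carried Hcn4-GFP on a mixed strain background. A second set held 7 SAN libraries from E12.5 embryos, all Hcn4-GFP and Isl1 fl/fl and all exposed to tamoxifen at E10.5. In that set 4 libraries were Cre-negative (CreNeg) and 3 also carried CAG-Cre/Esr1 (CrePos). The CAG promoter is active in most cell types, so the recombinase was not restricted to the node, and the floxed Isl1 alleles and the tamoxifen were shared by both groups.

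Voltage-gated potassium channels open when the membrane depolarises and let potassium leave the cell, which ends the action potential. Each pore is an assembly of alpha subunits, and accessory proteins set how many channels reach the membrane and how fast they inactivate. In the SAN, the pacemaker of the heart, delayed rectifier current brings the cell back to its most negative voltage before the next spontaneous depolarisation, whereas in working atrial muscle fast transient outward and ultrarapid currents shape an early, short repolarisation. Kcnip2 encodes an accessory subunit and not a pore, and the Kcnt2 channel is gated mainly by intracellular sodium, so the label of voltage-gated channels fits both only loosely.

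Promoter windows are shown for the genes on which the comparisons between tissues and stages turn, from 250 bases before to 50 bases after the RefSeq start site on mouse build GRCm38.p6. The RefSeq table held a window for 7 of the 9 members and none for Kcna1 or Kcnq1. Both strands of these 7 windows were searched for short motifs of 4 factor families active in heart development, spelled out after the sequences, and capitals mark the single match found. Each sequence runs 5′ to 3′ on the strand of its gene, at chr2:63184238-63184537 (minus) for Kcnh7, chr19:45816014-45816313 (minus) for Kcnip2, chr3:105451640-105451939 (plus) for Kcnd3 and chr1:140245468-140245767 (plus) for Kcnt2.
Kcnh7: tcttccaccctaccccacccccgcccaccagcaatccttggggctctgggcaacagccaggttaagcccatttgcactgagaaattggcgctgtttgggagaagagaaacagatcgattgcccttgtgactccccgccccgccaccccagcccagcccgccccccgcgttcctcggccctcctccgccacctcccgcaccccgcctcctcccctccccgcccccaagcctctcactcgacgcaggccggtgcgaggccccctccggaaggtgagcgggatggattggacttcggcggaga
Kcnip2: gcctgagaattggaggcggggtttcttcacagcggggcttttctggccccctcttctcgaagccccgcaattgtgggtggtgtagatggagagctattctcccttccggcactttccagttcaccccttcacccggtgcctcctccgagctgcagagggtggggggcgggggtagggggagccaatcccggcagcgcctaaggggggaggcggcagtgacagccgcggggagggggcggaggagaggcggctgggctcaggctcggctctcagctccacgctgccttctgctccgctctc
Kcnd3: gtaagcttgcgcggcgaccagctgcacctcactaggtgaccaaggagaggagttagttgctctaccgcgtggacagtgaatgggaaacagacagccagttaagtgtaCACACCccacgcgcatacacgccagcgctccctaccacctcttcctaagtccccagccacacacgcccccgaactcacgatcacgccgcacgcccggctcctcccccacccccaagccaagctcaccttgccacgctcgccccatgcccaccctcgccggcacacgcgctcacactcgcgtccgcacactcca
Kcnt2: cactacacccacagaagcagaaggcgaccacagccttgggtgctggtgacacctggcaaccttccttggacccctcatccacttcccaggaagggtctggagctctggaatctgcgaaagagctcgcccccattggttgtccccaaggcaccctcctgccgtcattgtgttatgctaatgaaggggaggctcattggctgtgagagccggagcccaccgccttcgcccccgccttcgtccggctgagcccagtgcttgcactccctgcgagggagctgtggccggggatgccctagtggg
The match in Kcnd3 was the T-box motif GGTGTG on the minus strand, beginning at position −143 from the start site. Of all 32851 promoter windows of this length in the table, 19.05% held that motif on either strand. The GATA motif searched, AGATAA, was present in 11.2% of them and matched no member. The homeodomain motif searched was TAATTA, found in 5.29% of all windows and in none of the members. The E-box searched was CACGTG, found in 7.15% of all windows and again in none of the members. The guanine and cytosine content was 67.7% for Kcnh7, 67% for Kcnip2, 64% for Kcnd3 and 62.7% for Kcnt2, against 53.8% over all windows.

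Levels are the deposited library-scaled read counts after 1 common division, which makes them sum to 1000000 on average over the libraries (CPM). Differences are given as log2(CPM + 1) with their standard error (SE), which understates the change of genes with low levels, and a gene was called when limma's Benjamini-Hochberg adjusted p over all tested genes was below 0.05. All 9 members passed the filter of 1 CPM in 3 libraries of the tissue and stage set, in which 17568 genes were tested. The libraries held 5101711 to 17997497 reads each there and 45298053 to 88020475 in the Isl1 set, so that 1 read was worth 0.0617 to 0.215 CPM and 0.00823 to 0.0177 CPM. The labelled tissues carried their defining markers without overlap. Hcn4 ranged from 1141 to 3748 CPM in the 9 SAN libraries and from 4.43 to 31.1 CPM in the 9 RA libraries, and Tbx3, Shox2 and Isl1 were likewise higher in every SAN library, while Nppa and Bmp10 were higher in every RA library. There were 2 libraries that stood apart by ventricular transcripts. In SAN E14.5 replicate 1 the 5 ventricular markers summed to 1285 CPM, against 54.6 and 72.4 CPM in the other SAN libraries of that stage. In CrePos replicate 2, whose title calls it an outlier, they summed to 1850 CPM, against 32.7 to 135 CPM in the other libraries of the Isl1 set, and it was left out of the main comparison of that set.

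**Figure D1:**
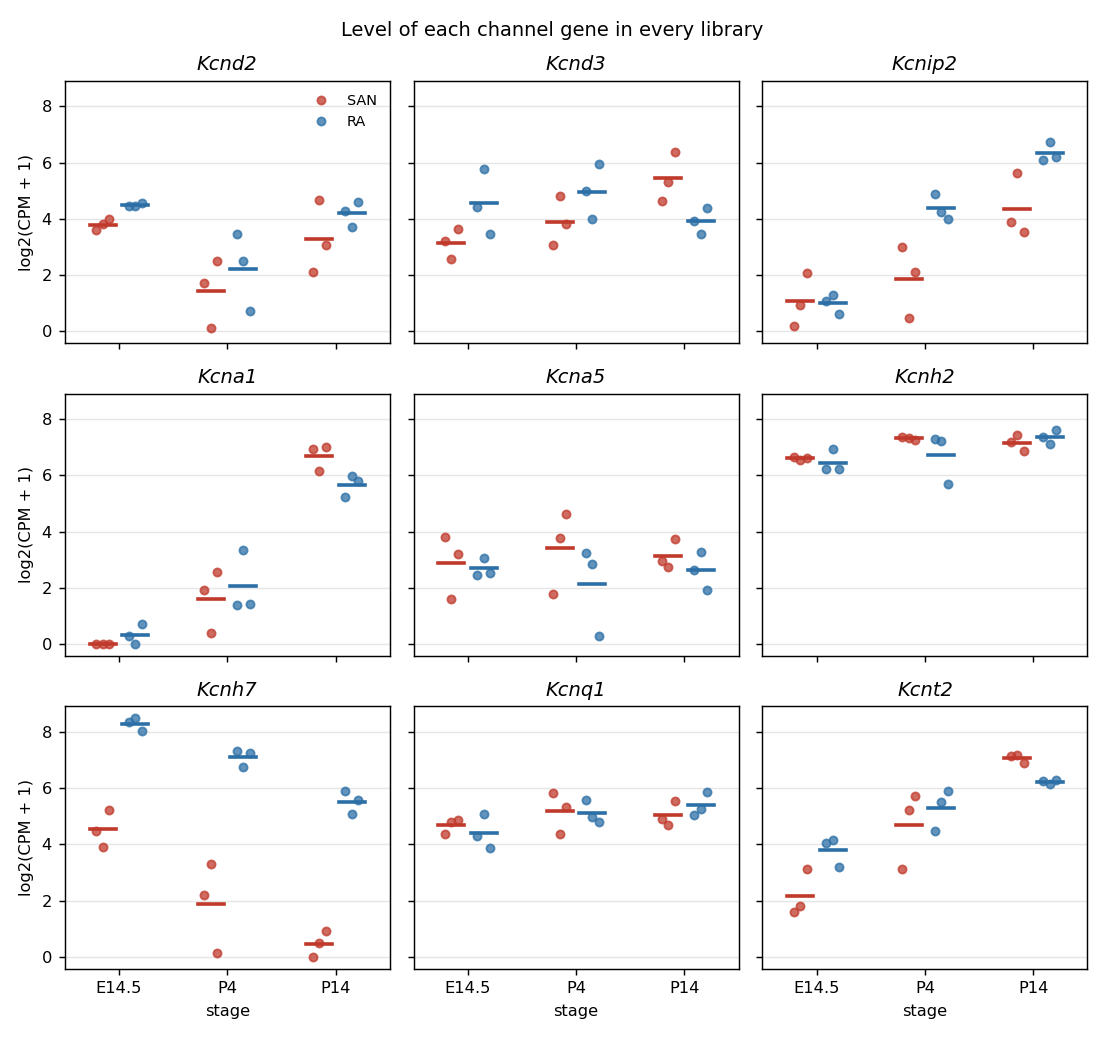
Level of the 9 potassium channel genes, as log2(CPM + 1), in each library of SAN (red) and RA (blue) at E14.5, P4 and P14, with 3 libraries per group and a horizontal line at the group mean. Kcnh7 lies higher in RA than in SAN at every stage, and Kcna1, Kcnip2 and Kcnt2 climb towards P14 in both tissues.

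Kcnh7, which encodes the ERG3 channel, separated the 2 tissues at every stage and was lower in SAN. At E14.5 its level was 319.6, 354 and 258 CPM in the RA libraries and 21.3, 13.9 and 36.1 CPM in the SAN libraries. At P4 it was 159, 107 and 151 CPM in RA and 3.58, 8.82 and 0.0871 CPM in SAN. At P14 it was 58.6, 32.8 and 46.4 CPM in RA, while the SAN libraries held 0, 3 and 11 reads, or 0, 0.400 and 0.880 CPM. The lowest RA library was above the highest SAN library at each stage, with means 13.1-fold, 33.4-fold and 107.6-fold higher in RA. The P14 ratio divides by a SAN mean of 0.427 CPM, near the counting floor, so its size is uncertain. The differences of SAN from RA were −3.74 ± 0.53 at E14.5 (SE, adjusted p = 9.8e-05), −5.24 ± 0.53 at P4 (adjusted p = 7.1e-07) and −5.05 ± 0.53 at P14 (adjusted p = 1.8e-06), and without SAN E14.5 replicate 1 the first was −3.71 (adjusted p = 0.00081).

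Kcnh7 also fell with age in both tissues. From E14.5 to P14 the difference was −4.06 ± 0.53 in SAN (adjusted p = 8.8e-06) and −2.76 ± 0.53 in RA (adjusted p = 0.00062), the RA value reaching an adjusted p of 0.052 with DESeq2 on the recovered reads. Within SAN the fall was called from E14.5 to P4, at −2.66 ± 0.53 (adjusted p = 0.0027, and 0.077 with DESeq2), and not from P4 to P14, at −1.40 ± 0.53 (adjusted p = 0.13). In RA neither step was called on its own, with −1.16 ± 0.53 (adjusted p = 0.24) and −1.60 ± 0.53 (adjusted p = 0.075). The 6 group means ran from RA E14.5 through RA P4 and RA P14 to SAN E14.5, SAN P4 and SAN P14, and the libraries of the neighbours RA P14 and SAN E14.5 overlapped, as did those of SAN P4 and SAN P14. The test of the difference between the tissues in the change with age gave −1.31 ± 0.75 and was not called (adjusted p = 0.45).

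Other values also differed between the tissues, but with age not all of them moved with Kcnh7. Its exons share 696 bases, or 4.57% of their length, with Gca on the opposite strand. Strand is not stated in the labels and is not kept by kits of this kind, so reads in that stretch are taken not to be told apart. Gca itself was at 50.8 to 74.9 CPM in RA and at 3.01 to 25.3 CPM in SAN, without overlap. With age its mean went from 58.0 through 60.8 to 73.8 CPM in RA, against the direction of Kcnh7, and from 18.2 through 15.4 to 7.60 CPM in SAN, in the same direction as Kcnh7. The summed level of 7 working atrial markers was 1188 to 4006 CPM in RA and 25.6 to 481.5 CPM in SAN. In RA this sum went from 1188 to 1222 CPM at E14.5 to 2908 to 4006 CPM at P14, against the direction of Kcnh7. In SAN it was 107 to 481.5 CPM at E14.5 and 162 to 282 CPM at P14, with overlap. The summed level of 6 endothelial markers was 1166 to 1702 CPM in RA and 428.5 to 1036 CPM in SAN. In RA the endothelial sum was 1316 to 1702 CPM at E14.5 and 1385 to 1589 CPM at P14, with overlap. In SAN it rose from 428.5 to 709 CPM at E14.5 to 963 to 1036 CPM at P14, against the direction of Kcnh7. The part of these cell types in the Kcnh7 difference was not tested, and in bulk tissue fewer cells of a type and less RNA per cell cannot be told apart.

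The other ERG gene, Kcnh2, which carries the rapid delayed rectifier current of heart muscle, was high in both tissues and did not separate them. Its level in RA was 73.3, 119.7 and 72.9 CPM at E14.5, 156, 147 and 51.2 CPM at P4, and 163, 136 and 194 CPM at P14. In SAN it was 100.1, 92.0 and 96.4 CPM at E14.5, 165, 159 and 152 CPM at P4, and 143, 174 and 116 CPM at P14. The tissues overlapped at each stage, with a mean difference over stages of 0.18 ± 0.18 (adjusted p = 0.62). Kcnh2 rose in RA from E14.5 to P14 by 0.91 ± 0.30 (adjusted p = 0.035), a call lost without RA E14.5 replicate 1 or 3 or RA P14 replicate 1 or 3 (adjusted p = 0.078 to 0.13) and at 0.29 (adjusted p = 0.42) when libraries were scaled to myocyte genes. In SAN every P14 library was above every E14.5 library, yet the difference of 0.56 ± 0.30 was not called (adjusted p = 0.20).

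**Figure D2:**
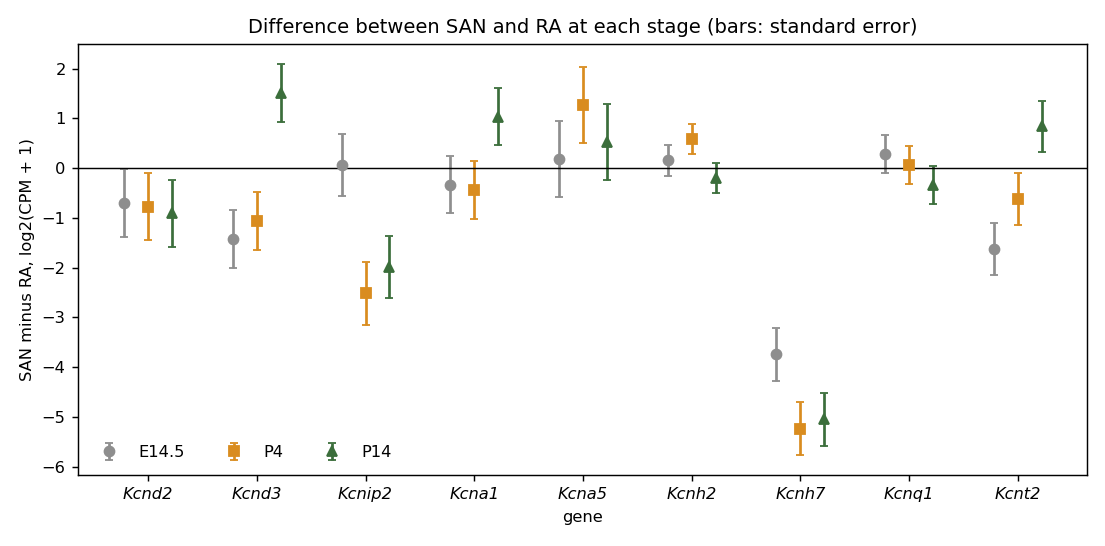
Difference of SAN from RA for each channel gene at E14.5, P4 and P14, on the log2(CPM + 1) scale, with bars of 1 standard error from the fit to 18 libraries. Kcnh7 lies between −3.74 and −5.24 at the 3 stages, Kcnip2 lies below 0 at P4 and P14, and Kcnd3 and Kcnt2 lie below 0 at E14.5 and above 0 at P14.

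Kcnip2, the KChIP2 subunit that Kv4 channels need for a full transient outward current, was the other member that differed between the tissues, and it rose with age in both. At E14.5 its level was 1.13, 1.47 and 0.535 CPM in RA and 0.145, 0.925 and 3.21 CPM in SAN. At P4 it had reached 28.5, 18.1 and 15.1 CPM in RA but 6.97, 0.401 and 3.31 CPM in SAN. At P14 it was 66.4, 106 and 72.5 CPM in RA and 13.8, 48.4 and 10.6 CPM in SAN. The tissues overlapped at E14.5 and no longer at P4 or P14. The difference of SAN from RA was −1.48 ± 0.36 over the 3 stages (adjusted p = 0.0079) and −2.52 ± 0.63 at P4 (adjusted p = 0.015), where RA was 5.78-fold higher by the means. At P14, with RA 3.37-fold higher, it was −1.99 ± 0.63 and was not called (adjusted p = 0.079).

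Both of these Kcnip2 calls were lost under some settings. On recovered reads the mean over stages was −1.27 with edgeR (adjusted p = 0.097) and −1.27 with DESeq2 (adjusted p = 0.10), and at P4 the adjusted p was 0.090 and 0.084. Without RA P4 replicate 1 the P4 difference was −2.27 (adjusted p = 0.074), and without SAN P4 replicate 2 it was −1.83 (adjusted p = 0.12). The rise with age was larger. From E14.5 to P14 it was 5.34 ± 0.63 in RA (adjusted p = 2.6e-06) and 3.28 ± 0.63 in SAN (adjusted p = 0.00052). In RA the rise was called by P4, at 3.38 ± 0.63 (adjusted p = 0.0013), and the step from P4 to P14 was 1.96 ± 0.63 (adjusted p = 0.063). In SAN the order was the other way, with 0.79 ± 0.63 to P4 (adjusted p = 0.52) and 2.49 ± 0.63 from P4 to P14 (adjusted p = 0.022), the second lost with edgeR (2.78, adjusted p = 0.053) and without SAN P4 replicate 2 (1.80, adjusted p = 0.12) or SAN P14 replicate 2 (1.85, adjusted p = 0.11). The rise to P14 was smaller in SAN by 2.05 ± 0.89, a difference that was not called (adjusted p = 0.26).

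Kcnd2 and Kcnd3 encode Kv4.2 and Kv4.3, the pores of the transient outward current. Kcnd2 stood at 21.1, 21.2 and 22.5 CPM in RA and 11.1, 13.0 and 14.9 CPM in SAN at E14.5, without overlap, though the difference of −0.70 ± 0.68 was not called (adjusted p = 0.72). It then dropped at P4 in both tissues, to 9.97, 4.71 and 0.645 CPM in RA and 2.29, 0.1003 and 4.70 CPM in SAN. At P14 it was 18.4, 12.1 and 23.3 CPM in RA and 3.36, 24.5 and 7.44 CPM in SAN. The fall from E14.5 to P4 was −2.34 ± 0.68 in SAN (adjusted p = 0.035) and −2.27 ± 0.68 in RA (adjusted p = 0.045). Neither held under every setting: with edgeR the adjusted p was 0.10 in SAN and 0.22 in RA, with no filter it was 0.054 and 0.070, in RA it was 0.080 with DESeq2 and 0.062 with 0.5 CPM added, the SAN value was −1.68 (adjusted p = 0.18) without SAN P4 replicate 2, and the RA value was −1.51 (adjusted p = 0.28) without RA P4 replicate 3. The SAN call was also lost without SAN E14.5 replicate 1, 2 or 3 or SAN P4 replicate 1, at −2.25 to −2.47. The RA call was also lost without RA E14.5 replicate 1, 2 or 3 or RA P4 replicate 2, at −2.24 to −2.41, and without 6 libraries of other groups that enter only the shared spread, at adjusted p values of 0.055 to 0.058. The steps back up from P4 to P14, 1.84 ± 0.68 in SAN (adjusted p = 0.12) and 1.97 ± 0.68 in RA (adjusted p = 0.082), were not called.

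Kcnd3 followed another course. In SAN its level was 8.24, 4.99 and 11.4 CPM at E14.5, 7.43, 27.4 and 13.1 CPM at P4, and 24.0, 38.5 and 82.6 CPM at P14. In RA it was 20.6, 53.8 and 10.2 CPM at E14.5, 30.5, 14.9 and 60.7 CPM at P4, and 14.16, 9.98 and 20.1 CPM at P14. Its rise in SAN from E14.5 to P14 was 2.30 ± 0.59 (adjusted p = 0.0059), or 5.88-fold by the means, against −0.64 ± 0.59 in RA (adjusted p = 0.47). The test of the difference between these changes gave 2.94 ± 0.83 (adjusted p = 0.063). At P14 all SAN libraries lay above all RA libraries, by 1.52 ± 0.59 (adjusted p = 0.18), whereas at E14.5 the groups overlapped, at −1.42 ± 0.59 (adjusted p = 0.21).

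Levels per kilobase of exon allow a rough comparison of genes. The length takes in all annotated exons of a gene, and the annotation behind the counts is not given, so the counted length may differ. On this scale Kcnd3 made up 45.8%, 79.3% and 85.6% of the summed level of Kcnd2 and Kcnd3 in the SAN libraries at P14. In the RA libraries it made up 29.3%, 30.7% and 31.6%. The groups did not overlap at that stage. At P4 the share was 59.9% to 99.3% in SAN and 62.2% to 98.1% in RA, and at E14.5 it was 17.1% to 29.3% and 19.5% to 57.7%, so the tissues overlapped at both earlier stages. The highest P4 shares rested on very few Kcnd2 reads, 1 in SAN P4 replicate 2 and 3 in RA P4 replicate 3. The other P4 libraries were at 59.9% to 63.5%.

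Kcna5, the Kv1.5 pore of the ultrarapid current, was low and scattered. In RA it was 4.51, 7.37 and 4.81 CPM at E14.5, 8.55, 6.29 and 0.215 CPM at P4, and 5.26, 8.73 and 2.81 CPM at P14. The SAN libraries held 13.0, 2.03 and 8.23 CPM at E14.5, 2.48, 12.7 and 23.8 CPM at P4, and 6.79, 5.73 and 12.2 CPM at P14. All 6 groups overlapped with their neighbours in the order of means, and the difference over stages was 0.66 ± 0.44 (adjusted p = 0.41). Kcnq1, the pore of the slow delayed rectifier, was likewise similar in range, at 13.5 to 56.3 CPM over the RA libraries and 19.6 to 55.0 CPM over the SAN libraries. Its difference over stages was −0.00074 ± 0.22 (adjusted p = 1.00), and its increase in RA from E14.5 to P14, 0.97 ± 0.38, was not called (adjusted p = 0.070). Of its exon bases, 121 lie opposite Kcnq1ot1.

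Kcna1 encodes Kv1.1, a low-threshold channel best known from axons. No SAN library held a read of it at E14.5, and RA held 0.226, 0 and 0.623 CPM. At P4 it was 2.75, 0.301 and 4.96 CPM in SAN and 1.63, 9.11 and 1.72 CPM in RA. At P14 it reached 121, 70.5 and 128 CPM in SAN and 36.1, 61.5 and 55.2 CPM in RA, where every SAN library was above every RA library and the means were 2.09-fold apart. Because Kcna1 was listed as a nodal gene, these tissue values are a description without a test. The rise from E14.5 to P14 was 6.70 ± 0.58 in SAN (adjusted p = 3.6e-08), at least 455-fold by the means when the E14.5 group is set at 3 reads per library. In RA it was 5.33 ± 0.58 (adjusted p = 9.7e-07). On the log2(CPM + 1) scale most of it came after P4, with 5.08 ± 0.58 in SAN (adjusted p = 1.8e-05) and 3.60 ± 0.58 in RA (adjusted p = 0.00070). The steps from E14.5 to P4 were 1.62 ± 0.58 in SAN (adjusted p = 0.092) and 1.73 ± 0.58 in RA (adjusted p = 0.082). The 1 CPM added exceeds the E14.5 means, 0 CPM in SAN and 0.283 CPM in RA, and shrinks these steps. Over the alternatives the step to P4 ran from 0.57 to 7.74 in SAN and from 0.70 to 3.71 in RA. The later step ran from 3.86 to 5.56 in SAN and from 2.68 to 4.24 in RA, so which step was larger depends on the setting.

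Nerve-associated transcripts did not all move with Kcna1. The 10 glial and Schwann cell markers summed to 18.4 to 62.4 CPM in SAN at E14.5, 39.7 to 62.6 CPM at P4 and 174 to 202 CPM at P14, with 6 of 10 called higher at P14 than at E14.5. In RA the sum was 57.9 to 83.5 CPM at P4 and 56.5 to 68.9 CPM at P14, the interval over which Kcna1 rose there, and 2 of 10 of these genes were called higher. The 13 neuronal markers measured summed to 170 to 252 CPM in SAN at E14.5 and 59.7 to 71.3 CPM at P14, but they did not move together: of the 10 tested, 2 were called higher and 4 lower at P14. Uchl1, the most abundant of them at E14.5, went from a mean of 163.7 to 15.5 CPM and Th, an enzyme of catecholamine synthesis, from 25.6 to 1.57 CPM. Those that rose were Dbh, the enzyme that makes noradrenaline, from 2.15 to 28.0 CPM, and Stmn2, from 1.62 to 11.1 CPM. From P4 to P14 in SAN 0 of the 10 were called higher and 2 lower. The genes named here were chosen after their values were seen. The part of nerve or glial RNA in the Kcna1 levels was not tested.

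Kcnt2 encodes the sodium-activated channel Slick. In SAN it was 2.02, 2.47 and 7.72 CPM at E14.5, 7.71, 35.8 and 51.5 CPM at P4, and 139.9, 141 and 117 CPM at P14. In RA it was 15.3, 16.8 and 8.19 CPM at E14.5, 21.4, 44.2 and 59.0 CPM at P4, and 75.8, 68.8 and 75.9 CPM at P14. All RA libraries were above all SAN libraries at E14.5, the tissues overlapped at P4, and all SAN libraries were above all RA libraries at P14, a description without a test since the gene was listed as nodal. The rise from E14.5 to P14 was 4.89 ± 0.52 in SAN (adjusted p = 5.9e-07), or 32.6-fold by the means, and 2.42 ± 0.52 in RA (adjusted p = 0.0015), or 5.47-fold. In SAN both steps were called, with 2.51 ± 0.52 to P4 (adjusted p = 0.0035) and 2.38 ± 0.52 from P4 to P14 (adjusted p = 0.0086). In RA the step to P4 was 1.502 ± 0.52 (adjusted p = 0.091) and the step from P4 to P14 was 0.92 ± 0.52 (adjusted p = 0.31).

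Connective tissue, macrophage and smooth muscle transcripts rose from E14.5 to P14 in both tissues, as Kcnt2 did. Kcnd3 rose over this interval in SAN. In RA its mean went from 28.2 to 14.7 CPM, against the direction of the RA sums given here, a change that was not called (adjusted p = 0.47). The 6 fibroblast markers summed to 1440 to 3273 CPM in SAN at E14.5 and 9978 to 13020 CPM at P14, with 4 of 6 called higher, and in RA to 1245 to 1678 CPM and 4125 to 5338 CPM, with 5 of 6 called higher. The 5 macrophage markers measured summed to 39.3 to 74.6 CPM in SAN at E14.5 and 386 to 569 CPM at P14, with all 5 called higher, and in RA to 60.1 to 98.9 CPM and 175 to 181 CPM, with 2 of 5 called higher. The 8 smooth muscle and pericyte markers summed to 697 to 833 CPM in SAN at E14.5 and 3156 to 4035 CPM at P14, with 5 of 8 called higher and 1 lower, and in RA to 422 to 677 CPM and 807 to 1212 CPM, with 3 of 8 called higher and 1 lower. Their part in the rise of Kcnt2 or Kcnd3 was not tested.

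**Figure D3:**
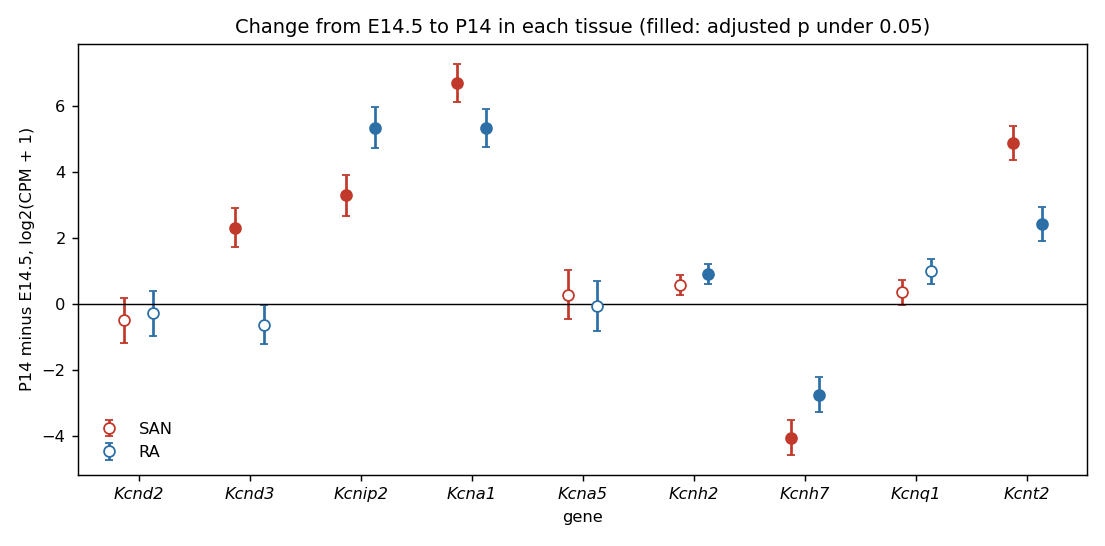
Change of each channel gene from E14.5 to P14 in SAN (red) and RA (blue), on the log2(CPM + 1) scale, with bars of 1 standard error and filled points for an adjusted p below 0.05. Kcna1, Kcnip2 and Kcnt2 rose and Kcnh7 fell in both tissues, and Kcnd3 rose in SAN, where it stood at 2.30 against −0.64 in RA.

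Counted over the 7 members not listed as nodal genes, none was called higher in SAN than in RA. Over the mean of the 3 stages 0 were higher and 2 lower, against 6.11% and 5.36% of all tested genes. At E14.5 the members gave 0 higher and 1 lower (2.24% and 3.09% of all genes), at P4 0 and 2 (2.97% and 2.99%), and at P14 0 and 1 (3.21% and 1.34%). At an unadjusted p under 0.05, in either direction, there were 2, 2, 2 and 3 of the 7 in these comparisons, and edgeR and DESeq2 each called 1 in every one of them.

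In the comparisons of age all 9 members were counted. From E14.5 to P14, 4 rose and 1 fell in SAN, where 9.74% and 14.5% of all genes did, and 4 rose and 1 fell in RA, where 5.99% and 16.7% did. From E14.5 to P4, 1 rose and 2 fell in SAN (3.85% and 4.39% of all genes) and 1 rose and 1 fell in RA (3.23% and 3.56%). From P4 to P14, 3 rose and 0 fell in SAN (2.68% and 2.91%) and 1 rose and 0 fell in RA (1.34% and 5.42%). The median change of the 9 members from E14.5 to P14 was 0.56 in SAN and 0.91 in RA, beside −0.18 and −0.37 over all genes. Without SAN E14.5 replicate 1, the library with ventricular transcripts, the 5 SAN calls from E14.5 to P14 held, at 6.70 for Kcna1, 4.60 for Kcnt2, 2.84 for Kcnip2 (adjusted p = 0.0054), 2.33 for Kcnd3 (adjusted p = 0.018) and −4.09 for Kcnh7. With libraries scaled to equal upper quartiles the RA median over all genes was −0.11, and with scaling to 7 myocyte genes it was −0.88, so RA values are to be read against the median of their own scaling. The SAN and RA comparisons with E14.5 use different libraries, but the 3 age comparisons within a tissue share theirs.

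The test of whether the change from E14.5 to P14 differed between the tissues called 0 of the same 7 members in either direction, where 1.64% of all genes were called higher in SAN and 0.632% lower. At an unadjusted p under 0.05 there were 2 of them, Kcnd3 and Kcnip2. On the recovered reads edgeR called 0 of the 7 and DESeq2 called 1.

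**Figure D4:**
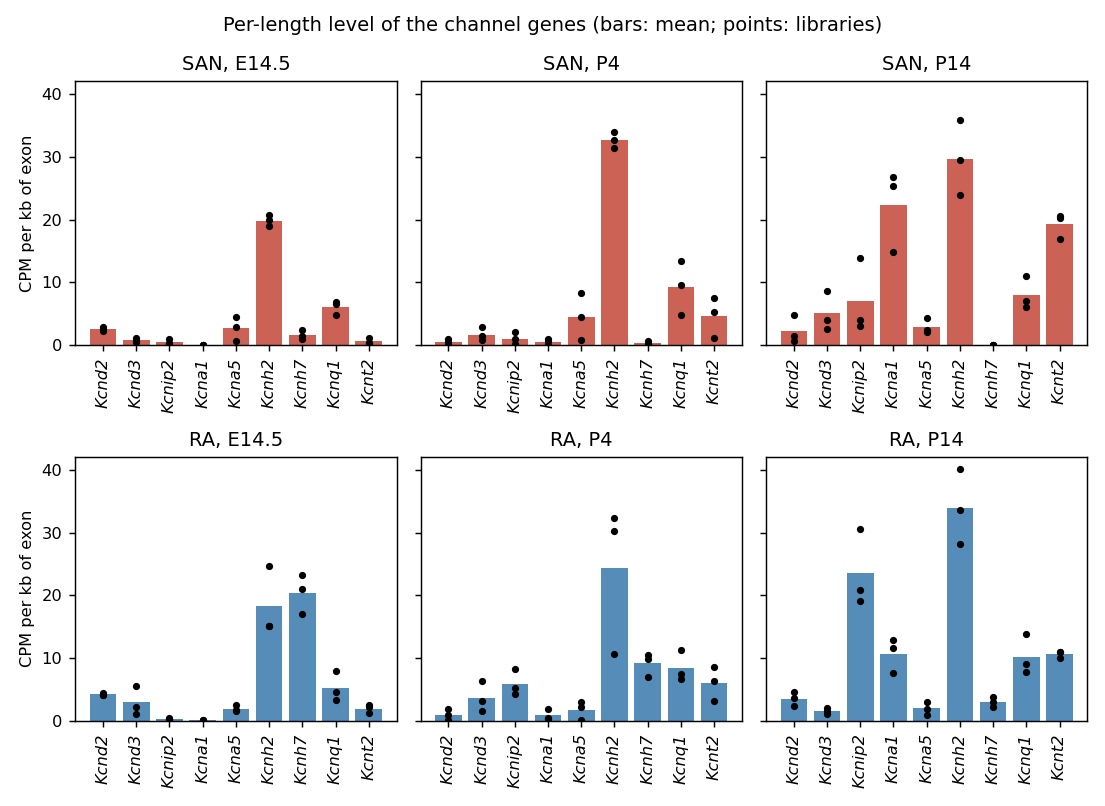
Level of each channel gene per kilobase of exon (CPM per kb) in SAN (red, top) and RA (blue, bottom) at E14.5, P4 and P14, with bars at the mean of 3 libraries and points for the libraries. Kcnh2 is the tallest bar in every group except RA at E14.5, where Kcnh7 is at 20.4 and Kcnh2 at 18.3 CPM per kb.

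Per kilobase of exon, the composition of the 9 genes shifted with age. The order of different genes on this scale is approximate, since the exon lengths may differ from those counted. At E14.5 the SAN had Kcnh2 at 19.8 ± 0.84 CPM per kb (SD, n = 3) and Kcnq1 at 6.12 ± 1.12, with every other member at 2.71 or less. At P14 the SAN had Kcnh2 at 29.7 ± 5.98, Kcna1 at 22.3 ± 6.56 and Kcnt2 at 19.2 ± 2.01, and Kcnh7 was last at 0.0280 ± 0.0289. In RA, Kcnh7 and Kcnh2 led at E14.5 with 20.4 ± 3.19 and 18.3 ± 5.56, which overlapped. At P14 the RA had Kcnh2 at 33.9 ± 5.99 and Kcnip2 at 23.5 ± 6.16, followed by Kcnt2, Kcna1 and Kcnq1 at 10.7, 10.7 and 10.2.

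In the Isl1 set 8 members passed the filter of 1 CPM in 2 libraries, Kcna1 being too low, and 14595 genes were tested between CrePos replicates 1 and 3 and the 4 CreNeg libraries. Isl1 encodes a LIM homeodomain factor of the developing node. Its count over the whole gene was 47.8 to 88.5 CPM in CreNeg and 71.7, 2.85 and 53.9 CPM in CrePos replicates 1, 2 and 3, and since reads outside the deleted part are included, this does not check the deletion. Hcn4 was 214 to 246.6 CPM in CreNeg and 107.7, 36.7 and 81.2 CPM in CrePos.

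Kcnh7 was higher in each CrePos library than in each CreNeg library. Its level was 5.55, 5.10, 1.45 and 2.27 CPM in CreNeg and 13.3, 14.7 and 16.7 CPM in CrePos, with replicate 2 between replicates 1 and 3. The difference was 1.91 ± 0.49 (adjusted p = 0.062) and was not called in the main test. It was called at 1.90 with CrePos replicate 2 put back (adjusted p = 0.030), at 2.32 with equal upper quartiles (adjusted p = 0.032), at 2.34 with median of ratios (adjusted p = 0.030), with a filter of 5 CPM (adjusted p = 0.047) and with DESeq2 at 2.62 (adjusted p = 0.00021), and not with edgeR at 2.61 (adjusted p = 0.062). Without CreNeg replicate 1 or 2 it passed (adjusted p = 0.034 and 0.047), whereas it did not without CreNeg replicate 3 or 4 (adjusted p = 0.081 and 0.11) or without CrePos replicate 1 or 3 (adjusted p = 0.11 and 0.81). It was also not called with no filter (adjusted p = 0.26), with 0.5 or 5 CPM added (adjusted p = 0.067 and 0.052) or with scaling to myocyte genes (adjusted p = 0.081). The working atrial markers summed to 30.3 to 107 CPM in CreNeg and 294 to 440 CPM in CrePos, and Gca was 4.99 to 19.6 and 19.0 to 22.1 CPM; their part in this difference was not tested.

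Kcnd2, Kcnd3 and Kcnt2 lay the other way. Kcnd2 was 5.92, 5.13, 5.69 and 2.90 CPM in CreNeg and 1.62, 1.56 and 1.69 CPM in CrePos, without overlap, a difference of −1.12 ± 0.46 that was not called (adjusted p = 0.21). Kcnd3 was 5.93, 9.29, 3.62 and 5.07 CPM in CreNeg and 2.93, 5.71 and 1.22 CPM in CrePos, or −1.18 ± 0.49 (adjusted p = 0.21). Kcnt2 was 3.60, 6.08, 10.6 and 3.10 CPM in CreNeg and 1.21, 6.83 and 0.831 CPM in CrePos, or −1.64 ± 0.52 (adjusted p = 0.12). For Kcnd3 and Kcnt2 replicate 2 overlapped with CreNeg, whereas replicates 1 and 3 did not. With replicate 2 put back the differences were −1.14 for Kcnd2, −0.78 for Kcnd3 and −0.99 for Kcnt2, and none was called. Fibroblast markers summed to 1193 to 2883 CPM in CreNeg and to 743 and 445 CPM in CrePos replicates 1 and 3, below every CreNeg library, while replicate 2 was at 2123 CPM. Their part in the Kcnd3 and Kcnt2 values was not tested.

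Kcnh2, the highest member in this set, was 42.4, 41.9, 44.3 and 41.8 CPM in CreNeg and 36.4, 39.3 and 32.4 CPM in CrePos, without overlap, at −0.30 ± 0.25 (adjusted p = 0.49). Over all tested genes the median difference was −0.42, and with equal upper quartiles it was −0.03, so the Kcnh2 value was no lower than that of the median gene. Kcna5 differed by 0.92 ± 0.50 (adjusted p = 0.30) and Kcnq1 by 0.58 ± 0.58 (adjusted p = 0.56), both with overlap. Kcnip2 stayed at 2.27 CPM or less in all 7 libraries. Of the 8 members 0 were called higher and 0 lower, where 0.678% and 1.32% of all genes were; 4 had an unadjusted p under 0.05, edgeR called 0 and DESeq2 called 1.

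**Figure D5:**
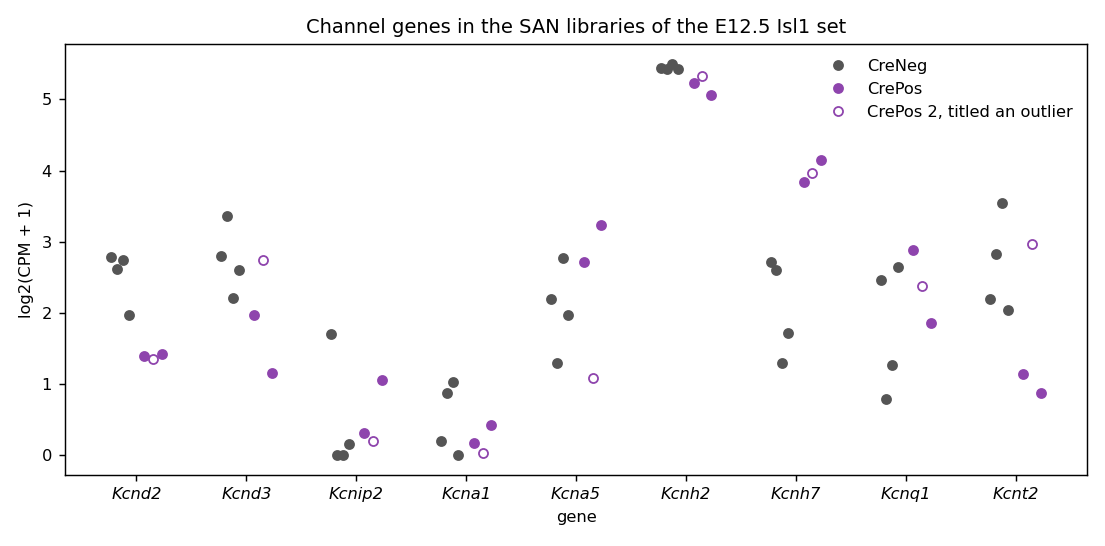
Level of the 9 channel genes, as log2(CPM + 1), in the 4 CreNeg (grey) and 3 CrePos (purple) libraries of the E12.5 Isl1 set, with CrePos replicate 2 drawn open. Kcnh7 is higher and Kcnd2 and Kcnh2 are lower in all 3 CrePos libraries than in any CreNeg library.

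The wider potassium channel family was followed through 56 further genes for pores and accessory subunits, of which 49 were in the table and 39 were tested in the tissue and stage set. Over the mean of the stages 6 were higher and 3 lower in SAN, against 6.11% and 5.36% of all tested genes. Among the higher ones was Kcnh6, the ERG2 channel, at 1.76 ± 0.30 (adjusted p = 0.00027). Lower were Kcnc2, the Kv3.2 pore, at −2.72 ± 0.34 (adjusted p = 5.7e-06) and Dpp6, an accessory subunit of Kv4 channels, at −0.97 ± 0.23 (adjusted p = 0.0067). Thus the 3 ERG genes differed in direction. Kcnh6 was higher in SAN, Kcnh7 was lower in SAN and Kcnh2 was not called. Kcnh6 was at 7.46 to 37.8 CPM in the SAN libraries and 1.51 to 6.99 CPM in the RA libraries, without overlap.

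By stage, 3 of the 39 were higher and 1 lower in SAN at E14.5, 4 and 2 at P4, and 4 and 2 at P14. The shares of all genes were 2.24% and 3.09% at E14.5, 2.97% and 2.99% at P4, and 3.21% and 1.34% at P14. Dpp6 was at 6.09 to 9.95 CPM in RA at E14.5 and at most 0.509 CPM in every postnatal library of either tissue. Kcnip1, a relative of Kcnip2, was at 1.52 to 9.13 CPM in SAN and 0.113 to 0.369 CPM in RA at E14.5, and no library held a read of it at P4 or P14. Kcnmb1, an accessory subunit of calcium-activated channels that is typical of smooth muscle, was higher in SAN by 3.09 ± 0.63 at P4 (adjusted p = 0.0032) and 3.02 ± 0.63 at P14 (adjusted p = 0.0055), while 8 smooth muscle and pericyte markers summed to 703 to 3492 CPM in SAN and 465 to 1015 CPM in RA at P4, and to 3156 to 4035 CPM and 807 to 1212 CPM at P14. Kcne4, another accessory subunit, was higher in SAN at P14 by 2.96 ± 0.56 (adjusted p = 0.0023). Lower in SAN were Kcnc2 at P4, at −4.95 ± 0.60 (adjusted p = 7.0e-06), Kcnq3 at P4, at −1.66 ± 0.41 (adjusted p = 0.014), and Kcnv2, a silent subunit, at P14, at −2.10 ± 0.54 (adjusted p = 0.023).

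From E14.5 to P14, 9 of these 39 rose and 3 fell in SAN, and 4 rose and 4 fell in RA. Of all genes, 9.74% rose and 14.5% fell in SAN, and 5.99% rose and 16.7% fell in RA. In SAN Kcne4 rose by 3.77 ± 0.56 (adjusted p = 3.7e-05), and Kcnq5, a pore of neuronal M current, fell by 2.59 ± 0.63 on the log2 scale (adjusted p = 0.0043). In RA Kcnv2 rose by 3.23 ± 0.54 (adjusted p = 0.00013), and Dpp6 fell by 3.08 ± 0.40 (adjusted p = 1.0e-05) and Kcnq5 fell by 3.89 ± 0.63 (adjusted p = 0.00010). The change with age differed between the tissues for 3 of the 39, all more positive in SAN, among them Kcnmb1 at 4.996 ± 0.90 (adjusted p = 0.0043) and Dpp6 at 2.61 ± 0.57 (adjusted p = 0.018). In the Isl1 set 29 were tested and 1 was called, Kcnip1, which was higher in CrePos by 2.16 ± 0.48 (adjusted p = 0.029). Of all genes there, 0.678% were called higher and 1.32% lower. That fit left out CrePos replicate 2. Over all 3 CrePos libraries Kcnip1 was at 0.815 to 60.5 CPM, against 4.65 to 23.1 CPM in CreNeg. The lowest CrePos library was thus below every CreNeg library. The median difference of the 39 over the stages was 0.23 beside −0.01 over all genes, and that of the 29 in the Isl1 set was −0.32 beside −0.42.

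Genes with the most similar course over the 6 groups were found among 11557 genes by the smallest root mean square difference between centred group means of log2(CPM + 1). For Kcnh7 they were Sall1 and Plagl1 (both 0.69) and Thbs4 (0.83), beside a spread of 2.74 of the Kcnh7 means themselves. For Kcnip2 they were Rgs7 (0.17), Cd207 (0.29) and Lgr6 (0.44) beside 1.99. Rgs7 stood at 69.1 CPM in RA and 19.2 CPM in SAN at P14 and below 1 CPM in both at E14.5. For Kcna1 they were Hr (0.65), Pcolce2 (0.79) and Pi16 (0.82) beside 2.56, and for Kcnt2 they were Dcn (0.41), Slfn5 (0.44) and Lyz2 (0.46) beside 1.60. Dcn, also a marker on the fibroblast list, stood at 139 CPM in SAN at E14.5 and 1887 CPM at P14. Lyz2, also a marker on the macrophage list, stood at 7.12 CPM in SAN at E14.5 and 231 CPM at P14. For Kcnd3 they were Ust (0.21), Pf4 (0.26) and Myo1f (0.26) beside 0.76, and for Kcnd2 Ppp1r1b (0.29), Cdkl2 (0.45) and Zfp612 (0.47) beside 1.08. The members with the smallest spreads, Kcnh2, Kcnq1 and Kcna5, at spreads of 0.36, 0.32 and 0.40, came nearest to Ppap2a, Jph2 and Dgkh, at 0.08, 0.09 and 0.08. With 5 CPM added in place of 1, 15 of these 27 neighbours were again among the nearest 3. Kcnd2 kept 3 of its 3, Kcnd3 and Kcnt2 kept 1 each, Kcna5 kept 0 and each other member kept 2.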

How the data were processed

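The table held a signal for 20870 genes in 25 libraries from laser-captured mouse heart, with the regions picked by eye and drawn by hand and the cDNA amplified by a single-primer isothermal method, per the labels' protocols. Strand is not stated in the labels and is not kept by kits of this kind. Per the submitters' processing notes the authors aligned reads with TopHat2 2.0.6 to build mm8 and used edgeR, and the read counter and annotation are not given in the sources used here. Each deposited signal value was a whole read count over a library's own scaling factor: at least 99.98% of values were within 0.1 of a whole read after that factor was undone, and the recovered read counts served the count tests. Because the design allowed for other units, the main test was the one for normalized values, and edgeR and DESeq2 were alternatives.

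Signal was divided by 24.3 to give CPM, counts scaled to 1000000 reads per library on average, and log2(CPM + 1) was fitted with limma 3.58.1 in R 4.3.3, with an intensity trend, after a filter of 1 CPM in 3 libraries (2 in the Isl1 set). The 18 tissue and stage libraries were fitted together as 6 group means. CrePos replicates 1 and 3 were fitted against 4 CreNeg libraries, since replicate 2 is titled an outlier. Benjamini-Hochberg adjustment ran over all tested genes, with a threshold of 0.05. Simulated data were run through the fits for SAN against RA at P14 and for the Isl1 set only. Changes were planted there only in genes of higher level, and the outcome is not given here. The alternatives were pseudocounts of 0.5 and 5 CPM, no filter and a filter of 5 CPM, equal upper quartiles, median of ratios, scaling to myocyte genes, edgeR 4.0.16, DESeq2 1.42.0, the replicate number as a block, and leaving out each library. The labels do not tie libraries to separate animals, and the p-values therefore rest on the spread among libraries, which may be technical and would be too small if libraries share an animal. Counting limits cover counting error only.

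The members, the marker and channel lists and the tests were chosen with earlier results of these data known. All members are named. For each, the 3 genes of most similar profile are named among genes whose highest group mean reached 5 CPM, leaving out unnamed gene models and the genes of globins, histocompatibility antigens, immunoglobulins, ribosomal proteins and mitochondria. Of the other channels, the 2 called genes of smallest p in each direction of a comparison qualified to be named, and a gene that qualified is not reported here. Exon lengths came from GENCODE M21 on GRCm38 and promoter windows from RefSeq on GRCm38.p6, with no coordinate taken from the deposited table. No 50-base stretch of protein-coding transcripts was shared between members.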

Additional observations from a re-analysis of the deposited data

Results flagged for a closer look

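Kcnip2 in CreNeg replicate 1 stood at 2.267 CPM, while the other CreNeg libraries were at 0, 0 and 0.115 CPM. Its distance from the nearest other library was a larger part of the group's range than Dixon's critical value allows. The 9 genes gave as many groups of 4 to test, and chance alone flags about 5% of such groups.

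Kcnt2 changed side between the stages. SAN differed from RA by −1.622 at E14.5 and by 0.8397 at P14 on the log2(CPM + 1) scale, with every RA library higher at the first stage and every SAN library higher at the second. Because Kcnt2 was put on the list as a nodal gene, the difference between the stages is a description and was not tested as a result.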

How the results depend on the processing

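Of the 25 called values of single members, 0 changed direction and 17 were called under every alternative, while 8 lost their call under at least 1 of them, with these settings named beside each result or, for the replicate block, here. Of 29 further member values that were followed through the alternatives, 18 were called under at least 1 of them. Other uncalled values printed above were not among these 29. The tissue-by-stage difference for Kcnh7, −1.31, reversed to 0.32 (adjusted p = 0.82) with 5 CPM added before the logarithm. That amount exceeds the Kcnh7 mean of 0.427 CPM in SAN at P14, whereas the RA means were 310.7 CPM at E14.5 and 45.9 CPM at P14. Adding it therefore shrinks the SAN change with age more than the RA change. The planned scaling to 8 myocyte genes was not run because Tnni3 was at 0 in 1 of 18 libraries. Scaling to the other 7 of them was chosen after seeing the data.

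Members called, against the main counts, were as follows, with the counts between tissues taken over all 9 genes, the nodal Kcna1 and Kcnt2 included. These counts show dependence on processing and are no test of Kcna1 or Kcnt2 between tissues. Over the other 7 genes DESeq2 called 1 at E14.5 and 1 for the difference in change. The counts with each library left out, given further below, are to be read in the same way. SAN against RA over the stages gave 1 with edgeR and 1 with DESeq2 (main 2). At E14.5 DESeq2 gave 2 (main 1). At P4 edgeR and DESeq2 gave 1 each (main 2). At P14 adding 5 CPM, equal upper quartiles and myocyte scaling gave 2 each (main 1). From P4 to P14 DESeq2 gave 6 in SAN (main 3), and in RA adding 5 CPM gave 3, while a 5 CPM filter, equal upper quartiles, median of ratios and myocyte scaling gave 2 each (main 1). From E14.5 to P4 in RA, adding 0.5 CPM and no filter gave 1 each (main 2). The difference in change between tissues gave 2 with myocyte scaling and 2 with DESeq2 (main 0). In the Isl1 set a 5 CPM filter, equal upper quartiles, median of ratios, DESeq2 and putting CrePos replicate 2 back gave 1 each (main 0).

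Over all genes, calls at P14 between tissues were 2547 with myocyte scaling and 525 with edgeR (main 799). From P4 to P14 in RA they were 724 with equal upper quartiles, 754 with median of ratios, 4892 with myocyte scaling and 541 with edgeR (main 1188). From E14.5 to P14 in RA they were 8151 with myocyte scaling (main 3988). For the difference in change they were 2073 with myocyte scaling, 227 with edgeR and 675 with DESeq2 (main 399). In the Isl1 set they were 39 with no filter, 498 with myocyte scaling, 126 with edgeR and 661 with DESeq2 (main 292).

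Replicate numbers did not pair the libraries: the correlation of deviations between same-numbered SAN and RA libraries ran from −0.092 to 0.12 over 9 pairs, 2 of them over 0.1, and 3 libraries matched their own number best. With the replicate block, members called were 1 from E14.5 to P4 in RA (main 2) and 1 in the Isl1 set (main 0). In that set 980 genes were called in all (main 292). The calls that changed were Kcnd2 in RA, lost at −2.27 (adjusted p = 0.062), and Kcnh7 in the Isl1 set, gained at 1.99 (adjusted p = 0.044). No other call changed among the member values followed through the alternatives.

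Leaving out each library in turn, members called ranged from 1 to 2 for SAN against RA at E14.5, 1 to 2 for SAN against RA at P4, 1 to 2 for SAN against RA at P14, 1 to 3 for P4 against E14.5 in RA, 1 to 3 for P14 against P4 in RA, 0 to 2 for the difference in change and 0 to 1 in the Isl1 set. Genes called in all ranged from 593 to 1064 for SAN against RA at E14.5 (main 936), 468 to 922 for SAN against RA at P14 (main 799), 805 to 1679 for P4 against E14.5 in SAN (main 1448), 555 to 1148 for P14 against P4 in SAN (main 982), 773 to 1337 for P4 against E14.5 in RA (main 1193), 630 to 1376 for P14 against P4 in RA (main 1188), 194 to 568 for the difference in change (main 399) and 53 to 363 in the Isl1 set (main 292). In that order the lowest came without SAN E14.5 replicate 2 (with 594 without replicate 1 and 600 without RA E14.5 replicate 2), RA P14 replicate 2, SAN E14.5 replicate 1, SAN P4 replicate 2 or SAN P14 replicate 1, RA E14.5 replicate 3, RA P14 replicate 2, SAN E14.5 replicate 1 and CrePos replicate 3 (with 147 without CrePos replicate 1). Where an arm is left with 1 library, that library is assumed to vary like the other groups. Levels under 0.185 to 0.646 CPM, which is 3 reads depending on the library, could not be told from 0 in the tissue and stage set.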
